A study of Mus musculus with 72 samples.

Results

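Kupffer cells are the resident macrophages of the liver, and their markers were followed here in bulk liver RNA as 9 genes: Clec4f, Vsig4, Cd5l, Marco, Timd4, Adgre1, Csf1r, Cd68 and Folr2. They were taken by symbol from a count table of 55573 Ensembl genes, and each of the 9 symbols matched 1 row. RNA-seq libraries came from 72 livers of male C57BL/6 mice, held under a 12 h light and 12 h dark cycle, at 6 zeitgeber times (ZT, hours after lights on): ZT2, ZT6, ZT10, ZT14, ZT18 and ZT22. The animals were specific pathogen free (SPF) or germ free (GF), and at each time each of 4 groups had 3 mice, or 18 libraries per group over the day. All mice were Bmal1 fl/fl. WT mice carried the floxed allele alone, and the liver knockouts (LKO) had Albumin-Cre as well, so that the clock gene Bmal1 is deleted where the Albumin promoter is active. That promoter is a hepatocyte promoter, so Kupffer cells of LKO mice are not the cells in which Cre is driven. Mice were 10 to 14 weeks old when moved to single housing, and the GF colony was derived from the SPF line.

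Kupffer cells line the liver sinusoids and take up bacteria, complement-coated particles, dying cells and old red blood cells from portal blood. They are seeded before birth and renew in place, held in the niche by colony stimulating factor 1 and by signals from endothelial, stellate and parenchymal cells. Gut microbial products reach them through the portal vein. Clec4f is a galactose-binding C-type lectin found on mouse Kupffer cells, Vsig4 is a complement receptor that captures bacteria from blood, Marco is a scavenger receptor for bacteria, and Timd4 binds phosphatidylserine on dying cells. Cd5l is a protein that tissue macrophages secrete. Adgre1 encodes the F4/80 antigen, Csf1r the receptor for colony stimulating factor 1, Cd68 a lysosomal glycoprotein and Folr2 folate receptor beta. The count table places Clec4f at chr6:83644542-83656187, Vsig4 at chrX:96247203-96293438, Cd5l at chr3:87357881-87371073 and Marco at chr1:120474538-120505024 in GRCm38. Timd4 lies at chr11:46810800-46844332, Adgre1 at chr17:57358691-57483527, Cd68 at chr11:69664213-69666153 and Folr2 at chr7:101839988-101857194, and reads were counted over the exons of each gene.

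RefSeq promoters (GRCm38.p6) were used for 7 of the 9 markers. Adgre1 had no promoter entry and Csf1r was left out by choice, although both were called in at least 1 comparison. Of the 7, Cd68 was searched only, and the 6 whose genes were called in at least 1 comparison are shown. Each is the strand of the gene, 5′ to 3′, ending just before the outermost annotated start. Capitals mark matches, on either strand, to AGGTCA (bound by the ROR and REV-ERB clock receptors), AGGAAG (a core of sites for Spi1, the macrophage factor) or TGGGAA (the RBPJ core of Notch signalling). CACGTG, the E-box bound by BMAL1, was also searched.
Clec4f, chr6:83656188-83656366, minus strand: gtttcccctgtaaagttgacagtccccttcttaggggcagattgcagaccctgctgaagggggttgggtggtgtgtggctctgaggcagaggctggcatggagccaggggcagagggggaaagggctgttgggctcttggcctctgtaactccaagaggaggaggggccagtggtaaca
Vsig4, chrX:96293439-96293688, minus strand: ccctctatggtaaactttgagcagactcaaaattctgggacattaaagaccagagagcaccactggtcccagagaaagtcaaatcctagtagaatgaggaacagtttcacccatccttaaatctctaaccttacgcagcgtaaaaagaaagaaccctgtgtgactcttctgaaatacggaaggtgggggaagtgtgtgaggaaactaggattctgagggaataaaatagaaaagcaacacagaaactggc
Cd5l, chr3:87357631-87357880, plus strand: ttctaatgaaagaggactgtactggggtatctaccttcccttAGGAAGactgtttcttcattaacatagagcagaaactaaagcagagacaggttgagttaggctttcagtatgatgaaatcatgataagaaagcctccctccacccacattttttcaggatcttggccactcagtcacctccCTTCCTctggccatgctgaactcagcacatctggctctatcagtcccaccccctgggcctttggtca
Marco, chr1:120505025-120505274, minus strand: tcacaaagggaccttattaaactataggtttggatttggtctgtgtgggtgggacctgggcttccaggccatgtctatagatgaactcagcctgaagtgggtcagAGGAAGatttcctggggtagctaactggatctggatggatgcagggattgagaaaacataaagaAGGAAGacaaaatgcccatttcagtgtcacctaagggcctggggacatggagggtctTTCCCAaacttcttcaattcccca
Timd4, chr11:46810549-46810798, plus strand: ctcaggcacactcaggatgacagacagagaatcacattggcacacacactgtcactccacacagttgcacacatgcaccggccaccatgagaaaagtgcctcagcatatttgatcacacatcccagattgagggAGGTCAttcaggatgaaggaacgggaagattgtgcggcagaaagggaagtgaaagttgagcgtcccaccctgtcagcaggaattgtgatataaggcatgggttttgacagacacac
Folr2, chr7:101857195-101857440, minus strand: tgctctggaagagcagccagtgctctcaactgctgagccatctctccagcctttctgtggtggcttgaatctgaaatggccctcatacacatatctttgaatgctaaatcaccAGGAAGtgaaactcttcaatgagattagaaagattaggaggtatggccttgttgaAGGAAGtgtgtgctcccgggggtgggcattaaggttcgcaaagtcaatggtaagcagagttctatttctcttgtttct
The E-box letters were in 0 of the 7 windows, against 6.02% of 32851 promoters over 250 bases. AGGAAG was in 3 of the 7 (Cd5l, Marco and Folr2, each with 2 matches), against 29.5% of all promoters. AGGTCA occurred once in Timd4 and TGGGAA once each in Marco and Cd68, against 14.0% and 21.6% of all promoters. Vsig4 and Clec4f held 0 matches. A match is a run of letters, not a shown binding site.

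Total counts lay between 17369927 and 22076113 per library (median 19106725.5), and 0 libraries were without reads in any marker. The 8 hepatocyte genes summed to 57903 to 187198 CPM (counts scaled by library size, as edgeR's cpm gives them), as a liver sample should show. Of the 72 libraries, 4 went against their labels in Arntl, the gene symbol of Bmal1, or in its partner Npas2. Npas2 was 0.220 CPM in SPF LKO ZT14 replicate 2 and 1.81 CPM in SPF LKO ZT18 replicate 1, against 14.3 to 36.7 CPM in the other 16 SPF LKO libraries. Arntl was 2.12 CPM in SPF WT ZT14 replicate 3 and 8.19 CPM in GF WT ZT6 replicate 3, away from the other replicates of those times. A further 2 libraries stood apart in the markers themselves: SPF WT ZT6 replicate 3 was the highest of 72 in all 9 markers, and GF LKO ZT14 replicate 2 was the lowest in 7. Results are given with and without each set where it changes a call.

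**Figure D1:**
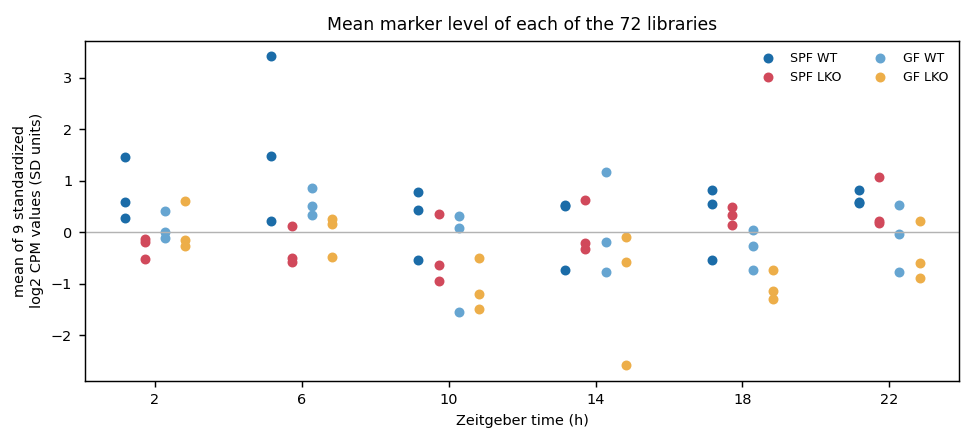
Mean standardized level of the 9 markers in each library (y axis, in SD units of log2 CPM) against zeitgeber time in hours (x axis), with one point per library and groups offset sideways. SPF WT ZT6 replicate 3 lies at 3.42 and GF LKO ZT14 replicate 2 at -2.58, outside the other 70 libraries.

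The markers spanned a wide range of abundance. On the RPKM scale (CPM divided by the length of the gene's exons in kilobases), which allows genes to be compared, the median over 72 libraries was 38 for Cd5l, 33.5 for Clec4f and 19.5 for Vsig4. Adgre1, Csf1r and Cd68 followed at 5.41, 5.39 and 4.89 RPKM, Timd4 at 3.29, Folr2 at 1.38 and Marco at 1.17. The secreted Cd5l, the lectin Clec4f and the complement receptor Vsig4 thus headed the list. Clec4f exceeded Vsig4 and Vsig4 exceeded Adgre1 in 72 of 72 libraries, and Cd5l exceeded Clec4f in 61. Adgre1 and Csf1r were not separated (Adgre1 higher in 37 of 72 libraries), nor were Folr2 and Marco (37 of 72), and Csf1r exceeded Cd68 in 47. Marco varied most, from 0.523 to 23.4 CPM (10 to 496 counts), a 44.7-fold range, whereas the other 8 markers spanned 3.29-fold to 6.93-fold ranges. Folr2 rested on 15 to 94 counts per library. The spans of Folr2 and Csf1r overlap genes on the other strand, and reads were counted over exons without strand. Whether their exons overlap was not examined, so it is not known whether reads of those partners enter these counts.

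The 9 markers moved together across livers. Pearson's r over the 36 pairs of markers had a median of 0.66 (0.43 to 0.88) across 72 libraries, and 0.60 (0.12 to 0.86) after each library was set against the mean of its group and time; the points share library depth and composition. The genes outside the list most like the mean marker level, among 10701 genes, were Ctss (r = 0.87), Cfp, Cd300ld, C1qc, Itgal, Cybb, C1qb, Nckap1l, Cd44 and Cd53. After group means were taken off they were C1qa (r = 0.87), Cfp, C1qc, C1qb, Ctss, Il18bp, Cd300ld, Cybb, Hk3 and Gbp2b. These include the 3 chains of the complement component C1q and lysosomal or oxidase genes that phagocytes express. They also include genes outside those classes, such as Itgal, Nckap1l, Cd44, Cd53 and Gbp2b. Which cells carried the likeness was not tested.

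SPF WT livers held the most marker RNA and GF LKO livers the least. The mean was highest in SPF WT for 9 of 9 markers and lowest in GF LKO for 8 of 9, Folr2 being the exception. Among all 13484 genes tested over 72 libraries, 28.2% were highest in SPF WT and 29.3% were lowest in GF LKO. Both held for 8 of 9 markers and for 19% of all genes. The markers moved together, so they are not 9 separate observations. Clec4f had a lowest, median and highest level of 71.5, 92.2 and 133 CPM in SPF WT, and of 39.5, 75 and 98.2 CPM in GF LKO. The values of both groups overlapped, in Clec4f as in the other markers. In bulk tissue, fewer Kupffer cells and less marker RNA per cell cannot be told apart.

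**Figure D2:**
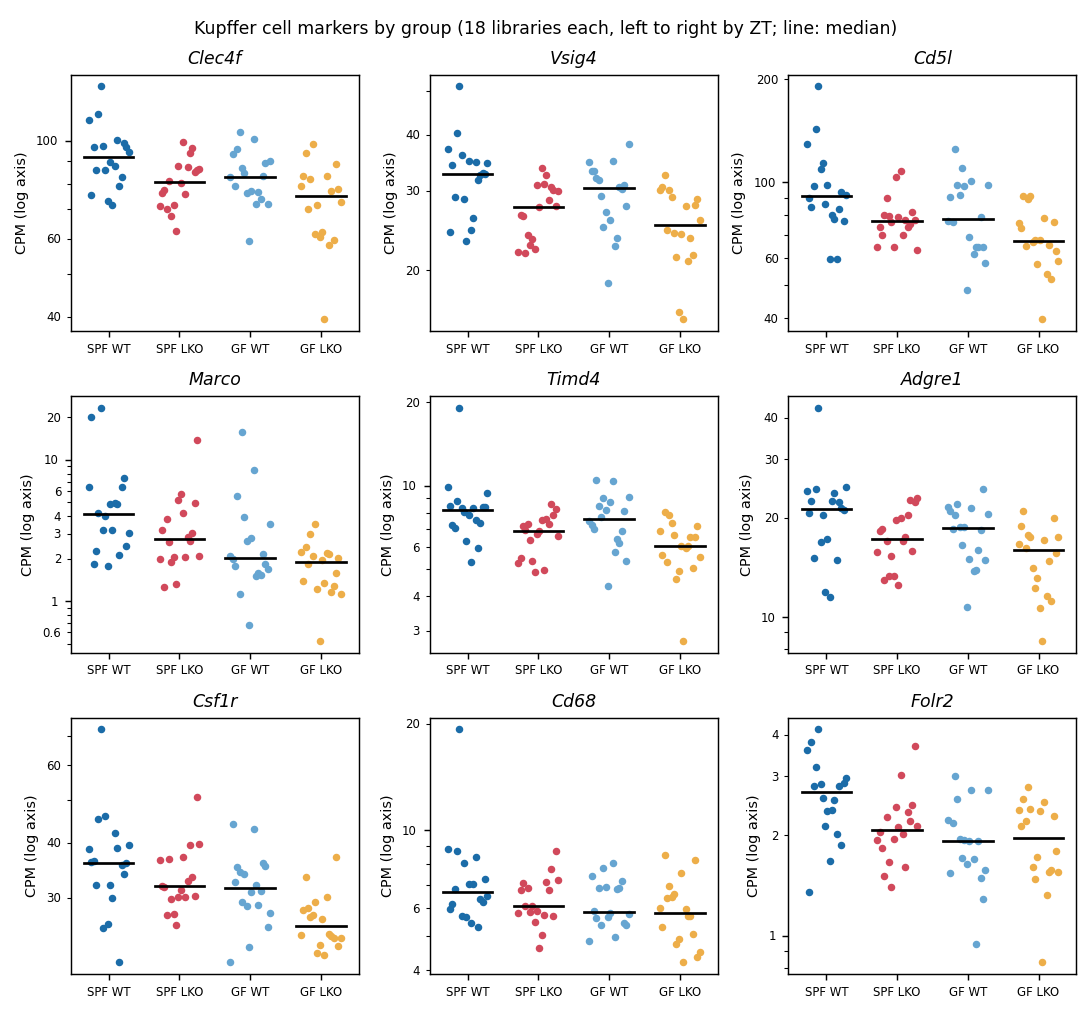
Level of each marker (y axis, CPM, log axis) in the 4 groups of microbial status and genotype; points are the 18 libraries of a group ordered by zeitgeber time, and lines are medians. Ranges overlap in every panel, medians are highest in SPF WT, and the single high SPF WT point at ZT6 recurs across panels.

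Germ-free status was compared first in mice with an intact liver clock. All 9 markers had lower estimates in GF WT than in SPF WT, and Folr2 alone passed the test, which held no term for time. With time as a factor 4 markers passed, and the share of all genes called in that fit is not given. Folr2 had a lowest, median and highest level of 1.35, 2.70 and 4.15 CPM in SPF WT and of 0.945, 1.92 and 3.00 CPM in GF WT, groups that overlapped. Its log2 fold change (GF over SPF) was -0.47 ± 0.14 (SE; quasi-likelihood test of edgeR, adjusted for all genes by Benjamini-Hochberg, adjusted p = 0.00701), and -0.42 without the libraries that stood apart. The 1 of 9 markers called stands beside 31.8% of all genes called in this comparison, 17.7% called lower. The median log2 fold change of the markers was -0.24, against -0.02 over all genes tested.

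In the fit without a time term, the other markers fell short of the threshold in that comparison. Clec4f was closest, at -0.18 ± 0.07 (SE; edgeR, adjusted p = 0.0502), and Marco was furthest from 0 at -0.83 ± 0.37 (adjusted p = 0.0794). Marco in SPF WT ran from 1.77 through a median of 4.11 to 23.4 CPM, and in GF WT from 0.680 through 2.03 to 15.8 CPM. Its highest GF WT value came from ZT6 replicate 3, the library that went against its label. Without the libraries against their labels Marco stood at -1.20 and 2 markers were called. Without SPF WT ZT6 replicate 3 Marco stood at -0.56 and the median of the 9 markers at -0.14. Leaving out GF WT ZT6 replicate 3 alone also added Marco, GF WT ZT14 replicate 2 added Marco and Clec4f, and SPF WT ZT18 replicate 2 added Clec4f, Cd5l and Csf1r for 4 calls. Clec4f was added by leaving out SPF WT ZT2 replicate 2, ZT6 replicate 1, ZT10 replicate 3, ZT14 replicate 2 or ZT18 replicate 3, or GF WT ZT6 replicate 2, and 3 calls were reached without GF WT ZT2 replicate 2 or GF WT ZT6 replicate 1.

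In mice without the hepatocyte clock, Marco and Csf1r were lower in GF livers. Marco ran from 1.26 through a median of 2.75 to 13.8 CPM in SPF LKO and from 0.523 through 1.89 to 3.53 CPM in GF LKO, with 0 GF LKO libraries above 3.53 CPM. The log2 fold change was -0.97 ± 0.25 (SE; edgeR, adjusted p = 0.00251). Csf1r, whose ligand keeps macrophages alive, had a mean of 33.5 ± 5.92 CPM in SPF LKO and 26.8 ± 3.93 CPM in GF LKO (SD, n = 18 each). Its log2 fold change was -0.33 ± 0.07 (SE; edgeR, adjusted p = 0.000694). The groups overlapped for both genes, and both calls held without the 4 libraries against their labels and without those that stood apart.

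The 2 of 9 markers called stand beside 36.4% of all genes called, 18.4% lower. The other 7 markers had negative estimates from -0.20 (Adgre1) to -0.10 (Cd68), none past the threshold, and the median of the 9 was -0.15 against -0.02 over all genes. Cd5l, at -0.19, was added to the calls when GF LKO ZT2 replicate 3, ZT6 replicate 2 or ZT6 replicate 3 was left out. This comparison shares no libraries with the one in WT mice, but each shares its groups with the comparisons of genotype that follow.

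**Figure D3:**
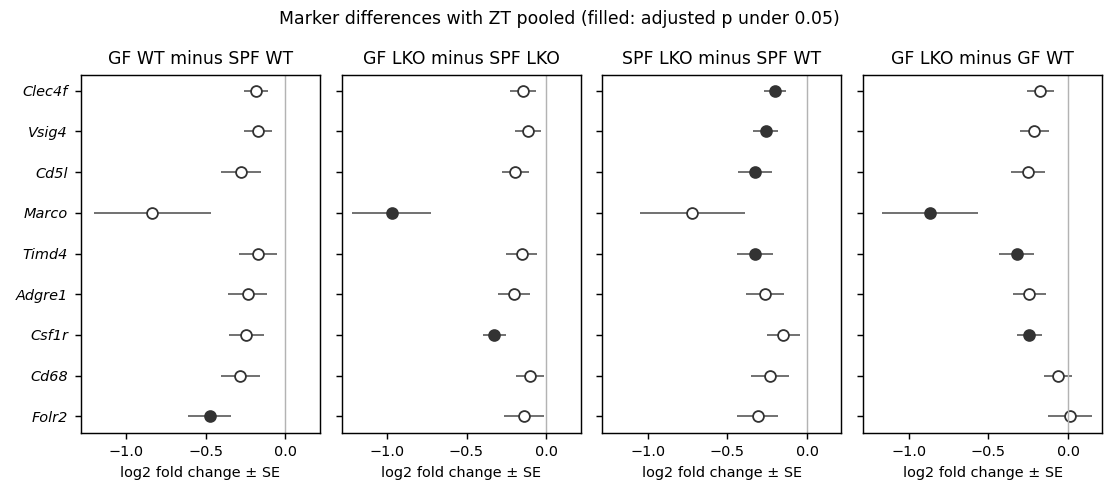
Log2 fold change of each marker with its standard error (x axis) in the 4 comparisons over all zeitgeber times; filled points have an adjusted p under 0.05 by edgeR. All 9 estimates are below 0 in 3 comparisons and 8 of 9 in the comparison of GF LKO with GF WT, and Marco has the widest error bars.

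Loss of the hepatocyte clock was compared next. In SPF mice, 4 markers were lower in LKO than in WT: the lectin Clec4f, the complement receptor Vsig4, the secreted Cd5l and the phosphatidylserine receptor Timd4. Vsig4 ran from 23.2 through a median of 32.8 to 51.2 CPM in SPF WT and from 21.9 through 27.7 to 33.8 CPM in SPF LKO. Its log2 fold change (LKO over WT) was -0.26 ± 0.08 (SE; edgeR, adjusted p = 0.0162). Cd5l fell by 0.33 on the log2 scale (SE 0.11, adjusted p = 0.0247), Timd4 by 0.33 (SE 0.11, adjusted p = 0.0294) and Clec4f by 0.20 (SE 0.07, adjusted p = 0.0320). The groups overlapped for all 4 genes.

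The 4 of 9 markers called stand beside 23.1% of all genes called, 11.5% lower, and the median of the 9 was -0.26 against -0.01 over all genes. Marco had an estimate of -0.72 ± 0.33 and the remaining markers ranged from -0.31 (Folr2) to -0.15 (Csf1r), none past the threshold. Much of this comparison turned on 1 liver: without SPF WT ZT6 replicate 3, Vsig4 alone was called, at a log2 fold change of -0.21, and Clec4f, Cd5l and Timd4 stood at -0.17, -0.24 and -0.22 with adjusted p values of 0.0614, 0.0504 and 0.0525 (edgeR). Leaving out SPF WT ZT2 replicate 1, SPF WT ZT6 replicate 2, SPF LKO ZT6 replicate 3 or SPF LKO ZT10 replicate 2 lost Clec4f. Leaving out SPF WT ZT2 replicate 2, SPF WT ZT14 replicate 2 or SPF LKO ZT14 replicate 2 added Folr2, and leaving out SPF LKO ZT22 replicate 2 added Folr2 and Marco for 6 calls. All 9 estimates stayed negative without the 2 libraries that stood apart. Without the 4 libraries against their labels 4 markers were called.

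In GF mice, Marco, Timd4 and Csf1r were lower in LKO than in WT. Timd4 ran from 4.37 through a median of 7.6 to 10.5 CPM in GF WT and from 2.76 through 6.08 to 8.03 CPM in GF LKO. Its log2 fold change was -0.32 ± 0.11 (SE; edgeR, adjusted p = 0.0193). That of Csf1r was -0.24 ± 0.08 (adjusted p = 0.0150) and that of Marco -0.87 ± 0.30 (adjusted p = 0.0249). The groups overlapped for each. Timd4 and Csf1r were called with any single library left out, whereas Marco was lost without GF WT ZT6 replicate 3 or GF WT ZT14 replicate 2, its highest GF WT values; without the libraries against their labels it stood at -0.51 (adjusted p = 0.111).

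The 3 of 9 markers called in GF mice stand beside 30.8% of all genes called, 15.2% lower, with a median of -0.24 against 0.01 over all genes. With time as a factor 7 markers were called, and the share of all genes in that fit is not given. Cd68 and Folr2 had estimates near 0, at -0.06 ± 0.09 and 0.01 ± 0.14, and the sign of Folr2 turned in 14 of 36 fits with 1 library left out. Leaving out GF WT ZT10 replicate 3 or GF LKO ZT2 replicate 3 added Vsig4, Cd5l and Adgre1 for 6 calls, and leaving out GF WT ZT14 replicate 3, GF WT ZT22 replicate 2, GF LKO ZT6 replicate 2, GF LKO ZT6 replicate 3 or GF LKO ZT22 replicate 1 added 1 of these genes.

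The genotype difference was then tested against microbial status. For 0 of the 9 markers did the LKO effect differ between GF and SPF mice, beside 0.438% of all genes (59 of 13484). An unadjusted p under 0.05 was reached by 0 markers, with edgeR as with DESeq2. The interaction estimates lay between -0.15 and 0.32 on the log2 scale. Folr2 had the largest, 0.32 ± 0.18 (SE; edgeR, adjusted p = 0.876). The sign of the interaction turned for 7 markers in at least 1 alternative fit, so no direction is given for them.

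Single times of day were compared with 3 mice per group. In SPF mice at ZT6, midday, every one of the 9 markers had an unadjusted p under 0.05 for LKO against WT, and 4 passed adjustment, beside 7.26% of all genes called, 3.39% lower. Vsig4 was 29.1, 40.2 and 51.2 CPM in SPF WT and 21.9, 24.0 and 22.8 CPM in SPF LKO. The groups did not overlap, and the log2 fold change was -0.81 ± 0.16 (SE; edgeR, adjusted p = 0.00822). Vsig4 was called with any single library left out. Folr2 (-0.90), Cd5l (-0.79) and Clec4f (-0.61) also passed, each with SPF WT above SPF LKO in all libraries.

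Those 3 calls at ZT6 were each lost without SPF WT ZT6 replicate 2 or 3, without any SPF LKO library of that time, or without GF LKO ZT6 replicate 2, and Folr2 also without GF WT ZT6 replicate 2 or GF LKO ZT6 replicate 1 or 3. Without SPF WT ZT6 replicate 3 their log2 fold changes were -0.70 for Folr2, -0.51 for Cd5l and -0.44 for Clec4f. Without SPF WT ZT6 replicate 1, 8 markers were called, and without GF WT ZT6 replicate 3, 5.

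At ZT2 in SPF mice, Cd5l and Marco were lower in LKO (2 of 9, beside 6.89% of all genes called, 3.24% lower). Cd5l was 130, 90.2 and 84.9 CPM in SPF WT and 64.9, 74.2 and 70.1 CPM in SPF LKO, without overlap (log2 fold change -0.55 ± 0.15 SE). Marco was 6.43, 20.2 and 1.82 CPM in SPF WT and 1.98, 3.20 and 1.26 CPM in SPF LKO, an overlap. Its log2 fold change was -2.15 ± 0.60, and replicate 2 alone carried the high value. Both calls were lost with most single libraries left out; without SPF WT ZT2 replicate 2, 4 markers were called and Marco was not among them.

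Between SPF and GF mice, 1 call was made at a single time in each genotype. In WT at ZT2, Marco was 2.09, 1.97 and 1.76 CPM in GF livers (log2 fold change -2.29 ± 0.63 SE; 1 of 9, beside 10.1% of all genes called, 4.01% lower), and the call was lost without SPF WT ZT2 replicate 2 or any GF WT library of that time. In LKO at ZT18, Vsig4 was 32.5, 28.6 and 30.6 CPM in SPF and 20.9, 23.6 and 21.6 CPM in GF livers, without overlap. Its log2 fold change was -0.46 ± 0.11 (SE; edgeR, adjusted p = 0.0427; 1 of 9, beside 3.71% of all genes called, 1.43% lower). SPF LKO ZT18 replicate 1 is one of the libraries against their labels, and without it the value was -0.42 (adjusted p = 0.128). The call was lost in 10 of 12 fits with 1 library left out, among them each SPF LKO and each GF LKO library of ZT18. It was kept only without SPF WT ZT18 replicate 1 or GF WT ZT18 replicate 1.

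In GF mice, 0 of 54 tests of LKO against WT at single times passed, where 4.21%, 11.7%, 13.1%, 6.1%, 8.43% and 4.44% of all genes were called from ZT2 to ZT22; 4 had an unadjusted p under 0.05, and DESeq2 also called 0. Estimates were negative in 46 of those 54, in 40 of 54 for LKO against WT in SPF mice, in 49 of 54 for GF against SPF in WT and in 40 of 54 in LKO. The markers move together and the comparisons share groups, so these are not 54 separate observations. In the fits over all times, 48.3% to 53.4% of all genes had negative estimates. The LKO difference in SPF mice had a median of -0.81 at ZT6 and 0.04 at ZT18, and the GF difference in LKO mice a median of 0.19 at ZT2 and -0.46 at ZT18. These are medians over the 9 markers. The other times gave 0 calls: for LKO against WT in SPF mice, 11.9%, 0.0%, 0.015% and 3.31% of all genes were called from ZT10 to ZT22. For GF against SPF in WT mice, the shares from ZT6 to ZT22 were 2.62%, 2.89%, 0.0751%, 0.983% and 0.516%. For GF against SPF in LKO mice they were 8.92%, 0.309%, 0.982% and 0.0601% from ZT2 to ZT14, and 2.25% at ZT22. Over the 54 tests, an unadjusted p under 0.05 was found in 7, 11 and 15 of them for GF against SPF in WT, the same in LKO, and LKO against WT in SPF mice. DESeq2 called 3, 4 and 9, and the shares of all genes that it called are not given.

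Daily rhythm was fitted as a 24 h wave in each group of 18 livers. Of 9 waves, 1 passed the test in SPF WT, 3 in SPF LKO, 0 in GF WT and 4 in GF LKO. The shares of all genes follow, and most peaks given here belong to waves that were not detected. In SPF WT livers the 9 fitted waves all peaked between ZT2.1 and ZT5.7, in the morning, and in GF LKO livers all between ZT1.7 and ZT6.1. In SPF LKO livers 8 of 9 peaked between ZT17.5 and ZT22.7, at night, with Cd5l at ZT11.5. In GF WT livers the peaks were spread from ZT0.4 to ZT13.2, 6 of 9 of them between ZT0 and ZT8. The latest was that of Csf1r, with a peak-to-trough size of 0.04 on the log2 scale (edgeR, adjusted p = 0.980). Without SPF WT ZT6 replicate 3 the SPF WT peaks ran from ZT23.7 (Adgre1) through ZT0.4 (Vsig4 and Marco) to ZT5.6 (Cd5l). Across all genes, 35.2% of SPF WT peaks, 33.2% of GF WT peaks and 34.4% of GF LKO peaks fell between ZT0 and ZT8, and 28.7% of SPF LKO peaks between ZT16 and ZT24. The markers rise and fall together across livers, so 9 peaks are not 9 separate observations.

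In SPF WT, Cd5l alone passed the test of the wave (1 of 9, beside 15.5% of all genes). Its mean was 144 ± 46.5 CPM at ZT6 and 73.8 ± 12.5 CPM at ZT18 (SD, n = 3 each). The fitted peak-to-trough size was 0.85 on the log2 scale, with a peak at ZT5.7 (edgeR, adjusted p = 0.00984). Without SPF WT ZT6 replicate 3 it was 0.67 (adjusted p = 0.0277). In GF WT, 0 of 9 passed, beside 27.7% of all genes; 1 had an unadjusted p under 0.05, and limma also called 0.

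In SPF LKO, Clec4f, Vsig4 and Csf1r passed (3 of 9, beside 22.2% of all genes). Vsig4 was lowest at ZT6, at 22.9 ± 1.06 CPM, and stood at 30.8 ± 3.08 CPM at ZT14 and 30.6 ± 1.96 CPM at ZT18 (SD, n = 3 each). Its peak-to-trough size was 0.46 with a peak at ZT17.5 (edgeR, adjusted p = 0.00802). Clec4f had a size of 0.37 and a peak at ZT18.3, and Csf1r a size of 0.44 and a peak at ZT21.2. With limma Csf1r was not called (adjusted p = 0.0563). Without the libraries against their labels Adgre1 was called as well, at a size of 0.52 (edgeR, adjusted p = 0.0471; 0.0515 with all libraries).

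In GF LKO, Clec4f, Vsig4, Cd5l and Adgre1 passed (4 of 9, beside 36% of all genes). Adgre1 was 18.8 ± 2.16 CPM at ZT2 and 12.1 ± 4.47 CPM at ZT14 (SD, n = 3 each), with a peak-to-trough size of 0.72 and a peak at ZT2.1 (edgeR, adjusted p = 0.00243). Vsig4 was highest at ZT2, at 31.1 ± 1.29 CPM, and lowest at ZT10, at 20.6 ± 4.08 CPM. All 4 remained called without GF LKO ZT14 replicate 2, the liver lowest in 7 markers, with sizes of 0.42 to 0.63. When the times were fitted as separate levels in place of a wave, 2 markers passed in GF LKO and 0 in the other groups. The share of all genes called in those fits is not given, so these counts are not by themselves a result about the markers.

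**Figure D4:**
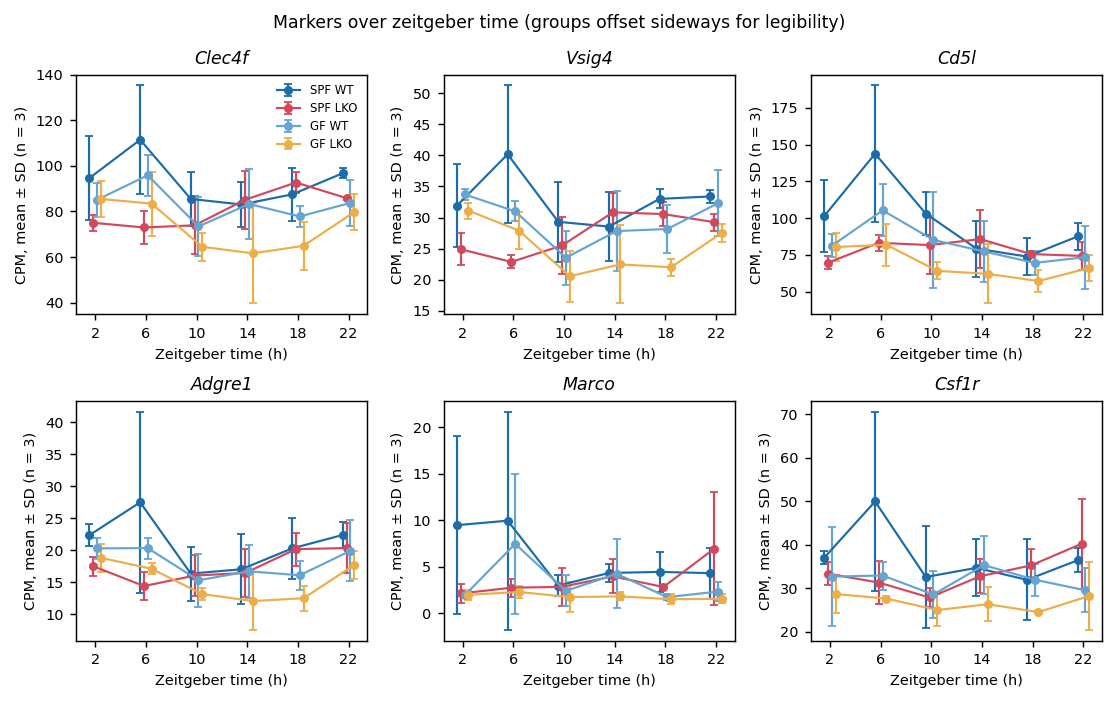
Mean level (y axis, CPM) with SD of 3 mice against zeitgeber time (x axis, hours) for 6 markers in the 4 groups; groups are offset sideways. Vsig4 in SPF LKO is lowest at ZT6 and higher from ZT14 to ZT22, whereas in GF LKO it is highest at ZT2. The widest SPF WT bar of Vsig4 is at ZT6, where the 3 livers were 29.1, 40.2 and 51.2 CPM.

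The waves themselves were compared between groups. In LKO mice the wave differed between SPF and GF livers for Clec4f, Vsig4 and Adgre1 (3 of 9, beside 4.96% of all genes). Of the lists described below, 3 of 14 general macrophage and leukocyte genes and 2 of 8 hepatocyte genes were called as well. So were 2 of 8 stellate cell, 2 of 10 sinusoidal endothelial and 1 of 11 other Kupffer cell genes, and 0 in the lists not named here. A differing wave was thus not particular to the markers. The difference wave had a peak-to-trough size of 0.91 for Vsig4 (edgeR, adjusted p = 0.00922), 0.80 for Clec4f (adjusted p = 0.0238) and 0.88 for Adgre1 (adjusted p = 0.0342) on the log2 scale. Vsig4 peaked at ZT17.5 in SPF LKO and ZT1.7 in GF LKO, Clec4f at ZT18.3 and ZT2.3, and Adgre1 at ZT20.1 and ZT2.1. Without the 4 libraries against their labels, of which SPF LKO ZT14 replicate 2 and ZT18 replicate 1 are in this comparison, Vsig4 alone was called (size 0.86, adjusted p = 0.0231). Without GF LKO ZT14 replicate 2, Vsig4 and Clec4f were called and Adgre1 was not (adjusted p = 0.0594).

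The wave of 0 markers was called different in the other 3 comparisons. Between WT and LKO in SPF mice, 7 of 9 had an unadjusted p under 0.05 but 0 passed adjustment, beside 1.06% of all genes; Cd5l had the smallest p, at a size of 0.87 (edgeR, adjusted p = 0.125). Between SPF and GF in WT, and between WT and LKO in GF mice, 0 had an unadjusted p under 0.05, beside 0.0442% and 6.04% of all genes called. By limma 0 markers were called in each of these 3 comparisons. These comparisons share groups with each other and with the one in LKO mice.

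**Figure D5:**
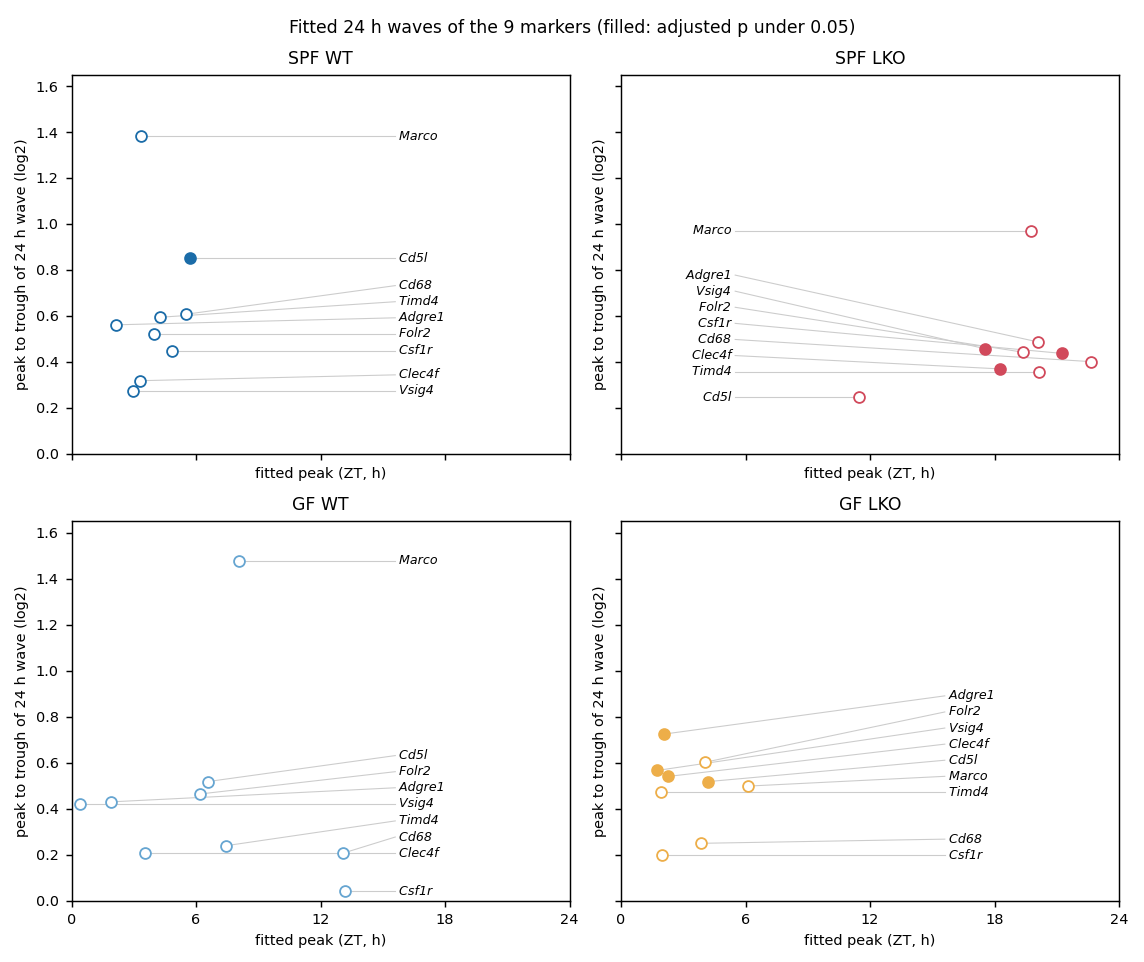
Peak-to-trough size of the fitted 24 h wave (y axis, log2) against its peak (x axis, ZT in hours) for the 9 markers in each group; filled points have an adjusted p under 0.05 by edgeR. Points gather in the morning in SPF WT and GF LKO and at night in SPF LKO, with Cd5l in SPF LKO at ZT11.5 apart from the others. Most points are open, for waves that were not detected.

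Other genes of Kupffer cells and their niche, chosen as lists beside the markers, were read in the same fits. Of 11 other Kupffer cell genes, 6 were lower and 1 higher in GF WT, and 6 were lower and 2 higher in GF LKO, each against its SPF group. Beside these stand 31.8% of all genes called in WT (17.7% lower) and 36.4% in LKO (18.4% lower). Id3, a transcriptional regulator needed for Kupffer cell identity, fell most, with log2 fold changes of -0.82 ± 0.32 in WT and -1.08 ± 0.20 in LKO (SE). In WT it was close to the threshold (edgeR, adjusted p = 0.0480). Spic, a factor of iron-recycling macrophages, stood at -0.53 ± 0.15 and -0.48 ± 0.16, and Nr1h3, the oxysterol receptor LXR alpha, rose at 0.15 ± 0.06 and 0.26 ± 0.07. Which cells carried the falls of Id3 and Spic and the rise of Nr1h3 in bulk liver was not tested. Of 8 hepatocyte genes, 6 were also higher in GF WT, and 4 were higher and 1 lower in GF LKO. Between genotypes 2 of the 11 were lower in SPF LKO and 4 in GF LKO, beside 23.1% (11.5% lower) and 30.8% (15.2% lower) of all genes called. The same shares stand beside the lists that follow.

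Of 9 scavenging and clearance partners tested, 6 were lower and 2 higher in GF mice of each genotype, 6 were lower in SPF LKO than SPF WT, and 5 were lower in GF LKO than GF WT. Gas6, the ligand that bridges dying cells to Mertk and Axl, had log2 fold changes of -0.76 ± 0.12 in WT and -0.65 ± 0.13 in LKO, and the scavenger receptor Msr1 -0.54 ± 0.13 and -0.32 ± 0.09 (SE). Cd36 rose by 0.37 ± 0.12 and 0.38 ± 0.11 and the complement component C3 by 0.28 ± 0.10 and 0.26 ± 0.07. Which cells carried these falls and rises was not tested. Of 7 niche genes tested, 1 was lower in GF WT, and 3 were lower and 1 higher in GF LKO. The Notch ligand Dll1 stood at -0.56 ± 0.15 and -0.64 ± 0.15, and which cells carried this was not tested either. For genotype, 0 of the 7 niche genes were called in either SPF or GF mice.

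General macrophage and leukocyte genes, which other myeloid cells share, were lower beside the markers in part of the comparisons. All 14 had lower estimates in LKO in both SPF and GF mice, 6 and 4 of them called, and 4 and 3 were called lower in GF WT and GF LKO. Of all genes, 11.5% and 15.2% were called lower for genotype, and 17.7% and 18.4% in GF WT and GF LKO. In GF LKO, however, only 6 of the 14 had lower estimates, with a median log2 fold change of 0.03 against -0.15 for the markers. Their summed level had a median of 331 CPM (253 to 648) in SPF WT, 261 (224 to 394) in SPF LKO, 316 (250 to 452) in GF WT and 267 (216 to 322) in GF LKO. Ptprc, the leukocyte antigen CD45, had log2 fold changes of -0.71 ± 0.15 in GF WT and -0.58 ± 0.10 in GF LKO, and the macrophage factor Spi1 -0.39 ± 0.15 and -0.37 ± 0.11 (SE). Of 10 genes of monocytes and recruited macrophages, 2 passed the filter in GF WT against SPF WT; their summed level had medians of 8.53 to 10.1 CPM in the 4 groups, with Chil3, S100a4 and Gpnmb under 0.1 CPM. Ccr2 stood at -0.94 ± 0.24 in GF WT and -0.46 ± 0.16 in GF LKO. Of microbial sensing genes, Tlr2 had -0.51 ± 0.20 and -0.25 ± 0.12 and Tlr4 -0.33 ± 0.13 and -0.32 ± 0.11, the value of Tlr2 in LKO not passing (edgeR, adjusted p = 0.0938); 2 of 8 were lower in GF WT, and 2 were lower and 1 higher of 9 in GF LKO. The part of these other cells in the marker differences was not tested.

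SPF WT ZT6 replicate 3 was also extreme outside the markers. It had the highest summed level of 72 libraries for general macrophage genes (648 CPM), monocyte genes (34.2 CPM), T and NK cell genes (23 CPM), B cell genes (11.3 CPM) and dendritic cell genes (17.6 CPM). Acute phase genes were looked at after these values were seen. Saa3 was 38.8 CPM there against 2.49 to 8.63 CPM in the other 17 SPF WT libraries. Saa2 (241 CPM) and Cd14 (3.44 CPM) also lay above them. Saa1, at 256 CPM, lay within their range of 14.7 to 427 CPM (median 33.1), as did Lcn2, Orm2 and Il1b. In SPF WT ZT6 replicates 1 and 2, Saa1 was 135 and 427 CPM and Saa2 86.1 and 226 CPM (median of the 17, 21.7). Orm2 was 29.3 and 63.2 CPM (median 10.2), whereas Saa3 was 3.53 and 7.62 CPM. The part of this in the ZT6 differences was not tested. In SPF WT ZT6 replicate 3, Cd68 was 19.3 CPM against 5.30 to 8.82 CPM in the other 17, and Timd4 19.1 CPM against 5.29 to 9.93 CPM. GF LKO ZT14 replicate 2 had the lowest summed general macrophage level (216 CPM) and the highest summed cholangiocyte level (164 CPM) of the 72. Clec4f there was 39.5 CPM, below the 58.2 to 98.2 CPM of the other 17 GF LKO libraries.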

How the data were processed

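Bulk liver RNA-seq of 72 mice was analysed from 1 table of gene counts. Per the file headers, the authors made these counts with featureCounts 2.0.0 over exons of Ensembl release 97 (GRCm38), without strand, and per the labels the reads were aligned with STAR 2.6.1b to mm10. Whole counts as deposited were tested with edgeR 4.0.16 (R 4.3.3): filterByExpr, TMM factors, quasi-likelihood test, Benjamini-Hochberg adjustment over all genes tested, threshold 0.05. CPM and RPKM were computed here from the counts with TMM-scaled library sizes. Pairs of groups were fitted on their 36 libraries over all times, the interaction on 72, single times on the 12 libraries of that time, and rhythms as cosine and sine terms with a 24 h period; the study's rank-based rhythm test was not run here. Alternatives were DESeq2 1.42.0, limma 3.58.1, other scaling, no filter, time or replicate terms, and libraries left out; leaving out the 2 libraries that stood apart was chosen after seeing the data. Replicates are separate mice. Fits were tested on simulated data. Members, lists and comparisons were chosen with earlier results of these data known. All 9 markers were named in every comparison; from each other list, at most the 2 called genes that rose most and the 2 that fell most in GF WT against SPF WT were named, with the 10 genes most like the mean marker level (mean log2 CPM of at least 1).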

Additional observations from a re-analysis of the deposited data

Results flagged for a closer look

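For 3 of 9 markers, beside 4.96% of all genes, a direct test found the daily wave to differ between SPF LKO and GF LKO livers. It was edgeR's quasi-likelihood test of the terms that let the wave differ. Other lists held such calls too, among them 2 of 8 hepatocyte and 2 of 8 stellate cell genes. The difference wave had a peak-to-trough size of 0.91 on the log2 scale for Vsig4, 0.80 for Clec4f and 0.88 for Adgre1. Leaving out replicate 1, 2 or 3 of every group, which removes 12 of the 36 libraries, left 0 of the 3 called, with sizes of 0.81 to 0.99 for Vsig4, 0.73 to 0.88 for Clec4f and 0.81 to 0.96 for Adgre1.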

How the results depend on the processing

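Calls are markers past an adjusted p of 0.05. The share of all genes called in each alternative fit is not given here, so a changed count is not by itself a result about the markers. For GF against SPF in WT mice, 4 were called with time as a factor, 4 with a time and replicate block, 5 with all 72 libraries in 1 fit and 2 without the libraries against their labels. For LKO against WT in SPF mice, 2 were called without a filter, 1 with the time and replicate block and 1 without the libraries that stood apart, and in GF mice 7 with time as a factor and 6 with all 72 libraries. Over single times, GF against SPF in WT gave 3 calls with DESeq2 and 6 without a filter; in LKO, 4 with DESeq2, 2 with RLE factors, 8 without a filter, 0 with a replicate block and 0 without the libraries against their labels. LKO against WT over single times gave 10 without a filter, 3 with the replicate block and 3 without the libraries that stood apart in SPF mice, and 4 without a filter in GF mice. With time as a factor, 0, 0 and 2 waves were called in SPF WT, SPF LKO and GF LKO, and 2 in GF WT without a filter. Wave differences gave 1 call without the libraries against their labels for microbial status in LKO mice, and 1 without a filter for genotype in SPF mice. The cause of these shifts was not tested.

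Without replicate 1, 2 or 3 of every group, calls ranged from 0 to 2 (GF against SPF in WT and in LKO), 0 to 5 (genotype in SPF), 0 to 3 (genotype in GF), 0 to 1, 0 to 0, 0 to 2 and 0 to 3 for the waves of WT and LKO mice, first SPF and then GF, and were 0 for the interaction and every wave difference. With single libraries left out they ranged from 1 to 4, 2 to 3, 1 to 6 and 2 to 6 in the 4 comparisons over the day and 0 to 4, 0 to 3, 3 to 10 and 0 to 1 over single times. Estimates that turned sign without 1 replicate number were Timd4 for GF against SPF in WT (-0.27 to 0.014), Cd68 and Folr2 for the same in LKO (-0.25 to 0.013 and -0.26 to 0.068), and Cd68 and Folr2 for genotype in GF mice (-0.19 to 0.10 and -0.054 to 0.11), and Folr2 there also with single libraries left out (-0.03 to 0.06). Same-numbered mice did not deviate together, with a correlation over 0.1 in 5, 3, 5 and 2 of 18 pairs, so the replicate number does not pair them. Folr2 rests on 15 to 94 counts and Marco on 10 to 496, which limits both.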

Other observations

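Genes of other liver cells were read as lists in the same fits, with the log2 fold change ± SE given for GF over SPF in WT and then in LKO mice. In these fits 31.8% of all genes were called in WT (17.7% lower) and 36.4% in LKO (18.4% lower). Hepatocyte genes rose in GF WT, 6 of 8, and 4 rose and 1 fell in GF LKO; Apoa1, the apolipoprotein of high density lipoprotein, had 0.53 ± 0.06 and 0.54 ± 0.08, and Cps1, the first enzyme of the urea cycle, 0.39 ± 0.09 and 0.31 ± 0.06. Of 10 sinusoidal endothelial genes, 5 were lower and 1 higher in GF mice of each genotype: the scavenger receptor Stab1 had -0.44 ± 0.09 and -0.44 ± 0.09, the junction cadherin Cdh5 -0.27 ± 0.08 and -0.32 ± 0.09, and the hyaluronan receptor Lyve1 0.42 ± 0.17 and 0.61 ± 0.21. Of 8 stellate cell genes, 2 were lower in GF WT, and 2 were lower and 1 higher in GF LKO, with Pdgfrb at -0.51 ± 0.14 and -0.50 ± 0.13 and Hgf at -0.47 ± 0.14 and -0.44 ± 0.15.

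Lymphoid and granulocyte genes were low. The neutrophil genes S100a8 and S100a9 had -1.30 ± 0.39 and -1.28 ± 0.32, and -1.33 ± 0.42 and -1.17 ± 0.31, while Ly6g, Retnlg, Ngp, Camp, Ltf and Mpo were under 0.1 CPM by median. The dendritic cell genes Clec9a and Zbtb46 had -1.11 ± 0.20 and -0.77 ± 0.18, and -0.38 ± 0.10 and -0.39 ± 0.08. The B cell gene Cd22 had -0.97 ± 0.23 and -0.90 ± 0.19 and the T cell gene Cd4 0.81 ± 0.25 and 0.70 ± 0.21. Of 5 cholangiocyte genes, 2 were lower in GF WT (Epcam -0.53 ± 0.19, Spp1 -0.44 ± 0.14), and in LKO mice Epcam had 0.07 ± 0.22 and Spp1 0.34 ± 0.16, neither past the threshold. In GF LKO 1 of the 5 was lower, Sox9 at -0.51 ± 0.16, named after its value was seen. The genotype difference was called unlike in SPF and GF mice for 0 of 5. Of 5 red blood cell genes, 1 was lower and 1 higher in GF WT, and 2 were lower in GF LKO, where all 5 estimates were below 0 (median -0.54). Hbb-bt had -0.56 ± 0.20 and -0.47 ± 0.24 and Alas2, the erythroid enzyme of heme synthesis, 0.30 ± 0.07 and -0.01 ± 0.07, neither past the threshold in LKO. The 2 called in LKO were Hba-a1 and Hba-a2, at -0.67 ± 0.23 and -0.79 ± 0.24, named after their values were seen; these near-identical genes can share reads.

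The genes most like Marco across the 72 libraries, chosen after its values were seen, were Timd4 (Pearson's r = 0.67), Ctsc (0.65) and Saa3 (0.64); the points share library and depth.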
